A study of Mus musculus with 12 samples.

Results

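Collagen chains were examined in bulk RNA-seq of 12 mouse prostate tumours. A row of the count table was taken as a collagen chain when its gene symbol was Col, a type number, the letter a and a chain number, and 44 of 23479 symbols had this form. Of these, 39 passed the filter on low counts and were tested with the other genes (15082 in all). The tumours grew in C57BL/6J mice from 100000 PTE-82 prostate cancer cells placed in the prostate in 40 µl of PBS and Matrigel, and the samples are labelled TMPRSS2-ERG+ expressing, after the gene fusion that puts the ERG transcription factor under an androgen-driven promoter. All tumours were resected on day 17 after perfusion of the animals. There were 4 groups of 3 tumours. The IgG group was the control, and the sources used here do not give its dosing. The anti-CSF1 group received an antibody against CSF1, the growth factor of macrophages, on days 9 and 14. Mice of the Lupron group received 0.6 mg of Lupron (leuprolide, a GnRH agonist that lowers circulating androgen) on day 4, and the Lupron+anti-CSF1 group, called the combination here, received both. Whether the Lupron group also had control IgG, the age of the mice, how the PTE-82 line was made, and batches of library preparation could not be taken from the sources used here. Each sample is labelled as a tumour of its own, and the p-values measure the spread between these tumours.

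A collagen is a trimer of chains that wind into a triple helix through a repeat in which glycine recurs at fixed steps. Fibrillar collagens such as types I, III and V are secreted as procollagens, trimmed at their ends and assembled into cross-linked fibrils that carry tension. Type IV forms the sheet of the basement membrane, type VI forms beaded filaments around cells, and the FACIT chains (fibril-associated collagens with interrupted triple helices) sit on the surface of fibrils. In tumours most fibrillar and type VI collagen is made by fibroblasts, and macrophages both degrade collagen and influence the fibroblasts that make it.

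Libraries held 20584363 to 29965355 counts, and levels are given in CPM after TMM scaling of the library sizes. Markers of other tissues differed widely between libraries. IgG tumour 3 had a summed level of 12520 CPM over 10 of 10 smooth muscle markers, against 2880 in IgG tumour 2 and 394.7 to 1724 in the other 10 tumours. It also had 2045 CPM over 6 of 6 adipocyte markers, against 18.9 to 303 elsewhere, and 1308 CPM over 4 of 4 basal epithelial markers, against 7.88 to 61.3 elsewhere. Lupron tumour 2 had 372300 CPM over 8 of 8 seminal vesicle genes, the highest of the 12. This sum was also high in IgG tumour 2 (106900 CPM), anti-CSF1 tumours 1 and 2 (101300 and 53460) and combination tumours 2 and 3 (51000 and 75570). In the remaining tumours it was 268.1 to 22610 CPM. Fibroblast markers (10 of 10 measured) summed to 446 CPM in IgG tumour 3, the lowest, and to 578.5 to 1088 CPM elsewhere. The tumour label was checked against Erg, at 8.01 to 22.4 CPM in all 12 tumours, and against the epithelial keratin gene Krt8, at 26.0 to 286 CPM.

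Collagen chains took 0.291% of all counts in IgG tumour 3, the lowest share, and 1.88% in anti-CSF1 tumour 3, the highest. Summed over all 44 chains, the level was 12440, 7346 and 2725 CPM in the IgG tumours, 12390, 7862 and 18420 with anti-CSF1, 9749, 4126 and 7205 with Lupron and 11500, 6928 and 13430 with the combination. The tumours of every group overlapped those of every other group in this sum. Group levels were 7504 ± 4861 CPM in the IgG group, 12890 ± 5295 under anti-CSF1, 7027 ± 2816 under Lupron and 10620 ± 3339 under the combination (mean ± SD, n = 3). In bulk tissue, fewer collagen-producing cells and less collagen RNA per cell cannot be told apart. Fibrillar chains made up 42.4 to 57.8% of the collagen CPM of a tumour, type VI chains 20.4 to 38.0% and type IV chains 11.4 to 19.6%.

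**Figure D1:**
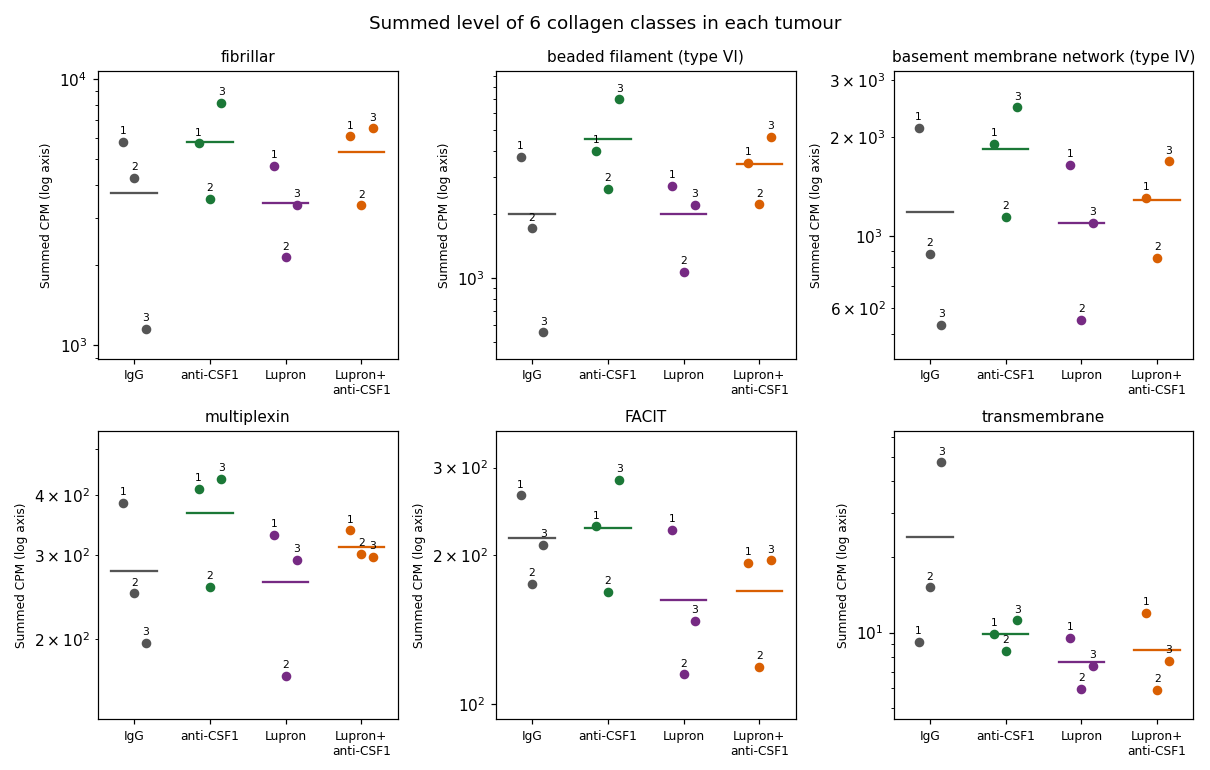
Summed CPM of 6 collagen classes in each tumour, on a log axis, by treatment group; points are tumours with their replicate number and lines are group means. IgG tumour 3 has the lowest fibrillar, type IV and type VI sums (1155, 533.4 and 555.2 CPM) and the highest transmembrane sum (47.5 CPM).

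Per kilobase of transcript, the scale on which chains can be compared with each other, Col3a1 was the most abundant chain at 392 CPM per kilobase averaged over the 12 tumours. It was followed by Col6a1 at 234, Col6a2 at 153, Col1a1 at 145, Col6a3 at 129, Col4a1 at 116, Col5a2 at 104 and Col4a2 at 80.5 CPM per kilobase. Col1a2, the partner of Col1a1 in type I collagen, stood at 44.3 CPM per kilobase. At the other end, 5 chains were too low to test. Col9a1 had 1 count in all. Col2a1, the cartilage fibrillar chain, had 34 counts over 5 libraries, and Col22a1 had 42 counts over 7. Col9a2 and Col19a1 had 58 and 35 counts, of which 53 and 34 were in IgG tumour 3.

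The comparisons ask whether CSF1 blockade or Lupron changed collagen transcripts. None of the 39 tested chains was called in any of the 8 comparisons by edgeR's quasi-likelihood test (threshold 0.05 on the adjusted p, after Benjamini and Hochberg). The antibody averaged over Lupron, 6 tumours against 6, called 1.87% of all genes tested. Lupron averaged over the antibody, the interaction, Lupron against IgG and both comparisons of the combination with a single treatment called 0% of genes. Anti-CSF1 against IgG and the combination against IgG called 0.00663% each. At an unadjusted p under 0.05, the antibody comparison held 4 chains higher and 5 lower, where 5.32% and 13.7% of all genes passed. Lupron had 0 higher (3.73% of genes) and 3 lower (5.32%). The interaction had 2 above 0 (6.07%) and 1 below (0.696%). Anti-CSF1 against IgG had 1 higher (6.11%) and 6 lower (16.7%), Lupron against IgG 0 higher (4.7%) and 5 lower (11.7%), and the combination against IgG 0 higher (9.54%) and 8 lower (16.5%). The combination had 0 higher (0.676%) and 1 lower (3.58%) against Lupron, and 0 higher (1.09%) and 2 lower (0.855%) against anti-CSF1. The comparisons share groups: those against IgG use the same 3 IgG tumours, and both averaged effects use all 12.

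The median log2 fold change over the 39 tested chains was 0.27 for the antibody, against 0.021 over all genes tested, and 24 of 39 were above 0. For Lupron it was -0.27, against -0.023 over all genes, with 31 of 39 below 0. Without IgG tumour 1 the Lupron median was 0.0028, with 20 of 39 above 0. Without both IgG tumour 3 and Lupron tumour 2 the antibody median was 0.078 and the Lupron median -0.27. No chain's 6 antibody-treated tumours were free of overlap with the other 6 tumours, and the same held for Lupron. Among all genes tested, 0.703% lay higher and 1.69% lower without overlap for the antibody, and 0.152% and 0.278% for Lupron.

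**Figure D2:**
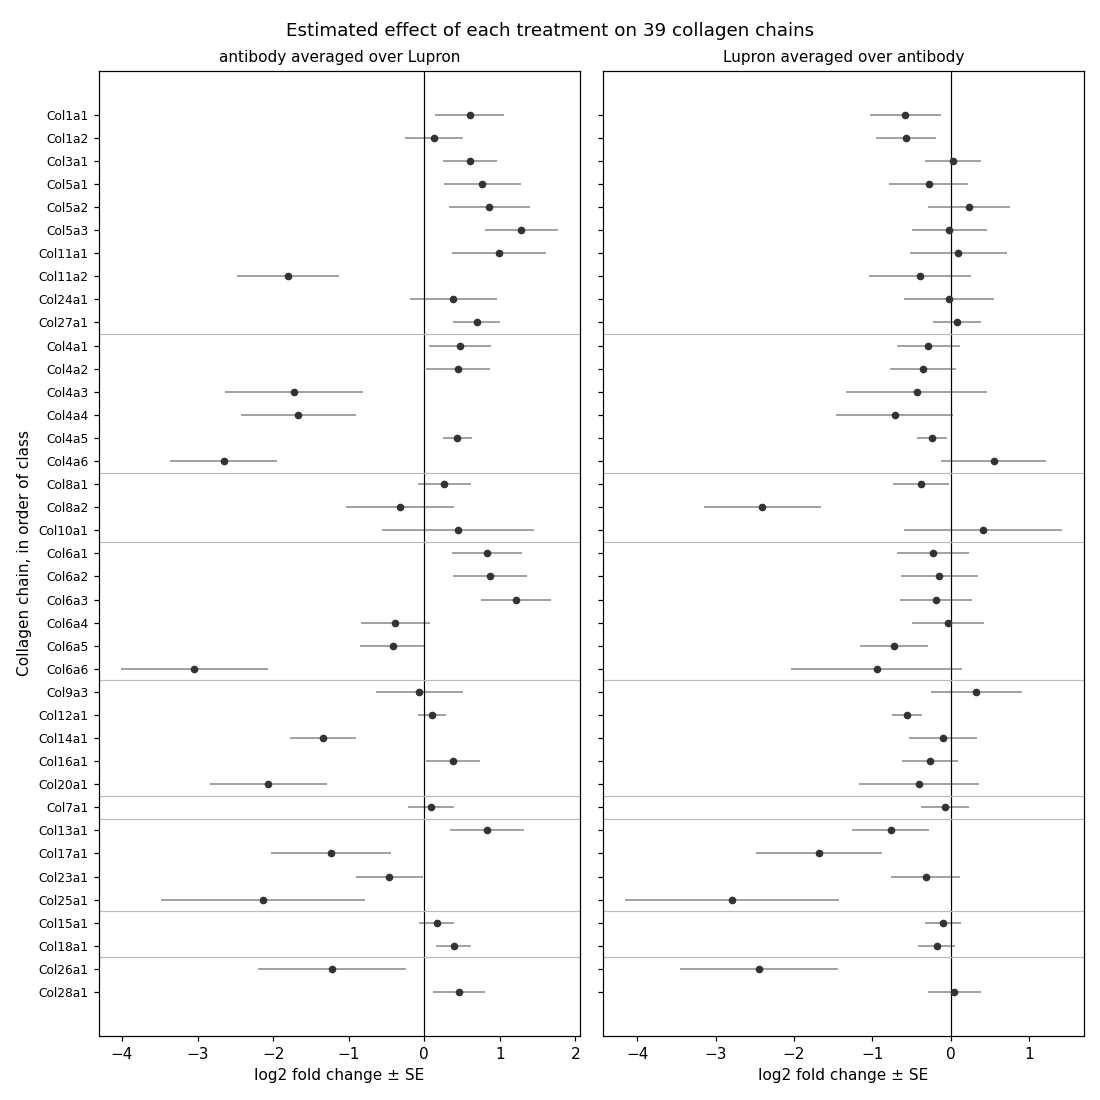
Log2 fold change with its standard error for 39 collagen chains, for the antibody averaged over Lupron (left) and Lupron averaged over the antibody (right), each from 6 tumours against 6; grey lines separate classes. Of the 10 fibrillar chains, 9 lie above 0 in the antibody panel, and 31 of 39 chains lie below 0 in the Lupron panel; none passed the test.

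Other tests and the choice of tumours moved the antibody count. DESeq2 called 3 chains (Col4a6, Col6a6 and Col14a1, all lower), where it called 9.45% of all genes. Limma voom with sample quality weights called 9 chains, 7 higher (Col5a3, Col6a3, Col5a2, Col6a1, Col4a5, Col18a1 and Col10a1) and 2 lower (Col4a3 and Col6a6), where it called 13.1% of genes. Without IgG tumour 1, edgeR called 6 chains, with Col5a3, Col6a3, Col11a1 and Col10a1 higher and Col4a6 and Col6a6 lower, where 10.1% of genes were called. Without Lupron tumour 1 it called Col4a6 (1.57% of genes), and without combination tumour 1 it called Col14a1 (1.02% of genes). Without IgG tumour 3, or without both IgG tumour 3 and Lupron tumour 2, it called 0 chains, where 3.13% and 2.51% of genes were called.

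Comparisons against the IgG group moved in the same settings. For anti-CSF1 against IgG, DESeq2 called 7 chains (12.2% of genes), with Col5a3 higher and Col4a4, Col4a6, Col6a6, Col14a1, Col17a1 and Col20a1 lower. Limma voom called 7 (15.3%), 5 higher (Col4a5, Col5a2, Col5a3, Col6a3 and Col8a1) and 2 lower (Col4a3 and Col6a6). Col5a3 and Col6a6 were called by both. Without IgG tumour 1, edgeR called 8 (16.8%). For Lupron against IgG the counts were 2 with DESeq2 (Col6a6 and Col17a1; 2.68%), 4 with limma voom (Col1a2, Col6a5, Col6a6 and Col17a1; 9.72%) and 1 without IgG tumour 1 (Col6a6; 4.19%). For the combination against IgG they were 3 (13.9%), 4 (13.7%) and 4 (14.2%). DESeq2 also called Col6a6 for the interaction (1.25%), where voom called no gene. With both tools 0 chains were called for Lupron averaged over the antibody (0.0796% of genes with DESeq2 and 0.0663% with voom), for the combination against Lupron (1.56% and 2.94%) and for the combination against anti-CSF1 (0.0398% and 0%). Without IgG tumour 3, edgeR called 0 chains in every comparison, where it called 1.11% of genes for anti-CSF1 against IgG, 1.37% for the combination against IgG and 1.38% for the combination against Lupron, and 0% for Lupron averaged over the antibody, the interaction, Lupron against IgG and the combination against anti-CSF1. Without both IgG tumour 3 and Lupron tumour 2, edgeR called 0 chains in each remaining comparison, where it called 0.93% of genes for anti-CSF1 against IgG and for the combination against Lupron, 1.31% for the combination against IgG and 0% for the others.

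Among fibrillar collagens, 11 chains were in the table and 10 were tested. Summed over the class, the level was 5803, 4250 and 1155 CPM in the IgG tumours, 5739, 3557 and 8122 with anti-CSF1, 4734, 2142 and 3374 with Lupron and 6102, 3362 and 6542 with the combination. IgG tumour 3 was the lowest and anti-CSF1 tumour 3 the highest. For the antibody, 9 of 10 chains were above 0 with a median log2 fold change of 0.65, and for Lupron 4 of 10 were above 0 with a median of -0.020.

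Col3a1 encodes the single chain of type III collagen, a homotrimer that co-assembles with type I in fibrils. Its level was 2667, 1887 and 569 CPM in the IgG tumours, 2506, 1764 and 3535 with anti-CSF1, 2342, 1261 and 1635 with Lupron and 3168, 1787 and 3029 with the combination. IgG tumour 3 was low and anti-CSF1 tumour 3 high, and the groups overlapped. The antibody effect on Col3a1 was a log2 fold change of 0.61 ± 0.36 (adjusted p = 0.369) in edgeR, and the Lupron effect 0.03 ± 0.36 (adjusted p = 0.976). Col3a1 is transcribed from the plus strand of chromosome 1. As the promoter of the most abundant chain, the 250 bases before its RefSeq start (GRCm38.p6, chr1:45311288-45311537) are shown. Capitals mark a match to the letters TATAAA, which is not a shown TATA box. This stretch holds no CG dinucleotide, where the median over 27025 RefSeq promoters was 6.
Col3a1: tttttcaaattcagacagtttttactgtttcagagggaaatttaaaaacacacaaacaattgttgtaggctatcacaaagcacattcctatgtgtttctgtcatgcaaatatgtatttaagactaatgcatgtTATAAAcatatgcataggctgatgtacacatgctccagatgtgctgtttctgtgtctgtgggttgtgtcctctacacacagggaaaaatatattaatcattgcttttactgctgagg

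Col1a1 makes the major chain of type I collagen, which holds a pair of these chains and a single Col1a2 chain. The level of Col1a1 was 1192, 1049 and 264 CPM in the IgG tumours, 1172, 496 and 1964 with anti-CSF1, 766, 276 and 562 with Lupron and 964, 412 and 1168 with the combination. The 3 Lupron tumours overlapped every other group, and the antibody and Lupron effects were 0.60 ± 0.46 (adjusted p = 0.472) and -0.58 ± 0.46 (adjusted p = 0.613). Col1a2 was not ordered in the same way. It was 249.7, 577 and 200.5 CPM in the IgG tumours, 348, 135 and 172 with anti-CSF1, 207, 89.7 and 106 with Lupron and 361, 119.6 and 276 with the combination. Its highest tumour was IgG tumour 2, which was not the highest for Col1a1, and its antibody effect was 0.13 ± 0.38 (adjusted p = 0.868).

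Type V chains nucleate and limit the width of type I fibrils. Col5a1 stood at 313 ± 268 CPM in the IgG group, 579 ± 263 under anti-CSF1, 279.7 ± 136 under Lupron and 437 ± 164 under the combination (mean ± SD, n = 3). Col5a2, the third most abundant fibrillar transcript by CPM per kilobase, stood at 415 ± 415 CPM in the IgG group, 883 ± 306 under anti-CSF1, 571 ± 269 under Lupron and 885 ± 314 under the combination (mean ± SD, n = 3). For both the IgG SD was close to the IgG mean, since IgG tumour 3 stood at 49.0 and 52.5 CPM. Their antibody effects were 0.77 ± 0.51 (adjusted p = 0.419) and 0.86 ± 0.53 (adjusted p = 0.386). Col5a3, a minor type V chain, was outside the rule for chains given tumour by tumour and was chosen after its values were seen. Its level was 143, 37.5 and 10.9 CPM in the IgG tumours, 179.7, 187 and 284 with anti-CSF1, 118, 51.2 and 95.2 with Lupron and 174, 138 and 147 with the combination. The 3 anti-CSF1 tumours were all above the 3 IgG tumours, and the 3 combination tumours were all above the 3 Lupron tumours, while IgG tumour 1 lay within the range of the combination. The antibody effect was 1.28 ± 0.48 (adjusted p = 0.198), and anti-CSF1 against IgG gave 1.76 ± 0.69 (adjusted p = 0.171).

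Of the remaining fibrillar chains, Col11a1, a type XI chain that nucleates fibrils with type V, ranged from 1.74 CPM in IgG tumour 3 to 62.7 CPM in combination tumour 3. Its antibody effect was 0.99 ± 0.62 (adjusted p = 0.396). Col27a1, a fibrillar chain found mainly in cartilage, stood at 18.1 ± 10.6 CPM in the IgG group, 31.9 ± 9.97 under anti-CSF1, 21 ± 3.02 under Lupron and 31 ± 2.9 under the combination (mean ± SD, n = 3). All 3 combination tumours had more Col27a1 than any IgG or Lupron tumour, and its antibody effect was 0.69 ± 0.31 (adjusted p = 0.253). Col24a1 ranged from 1.07 CPM in IgG tumour 3 to 46.6 CPM in combination tumour 3. Col11a2, at 0 to 1.03 CPM, was the single fibrillar chain below 0 for the antibody, at -1.80 ± 0.67 (adjusted p = 0.193). Because type XI and XXVII chains are also made in cartilage, 7 cartilage and bone markers were read beside them. Their sum was 114 to 371 CPM with IgG, 436 to 743 with anti-CSF1, 165 to 292 with Lupron and 363 to 755 with the combination, nearly all of it from Sox9 and Ibsp. Ibsp, bone sialoprotein, was 93.5, 17 and 0.463 CPM in the IgG tumours, 172, 496 and 386 with anti-CSF1, 99.5, 56.5 and 144 with Lupron and 292, 558 and 195 with the combination, with an antibody effect of 2.53 ± 0.82 (adjusted p = 0.153). Acan, Comp, Matn1, Bglap and Sp7 were each at 0 in at least 1 tumour, and the part of these markers in the chain levels was not tested.

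Type VI collagen had 6 chains, all tested. Summed, they reached 3748, 1716 and 555 CPM in the IgG tumours, 3983, 2632 and 6993 with anti-CSF1, 2723, 1073 and 2223 with Lupron and 3503, 2231 and 4639 with the combination. The highest tumour had anti-CSF1 and the lowest was IgG tumour 3. A type VI monomer is built from Col6a1, Col6a2 and a longer chain, most often Col6a3. Col6a3 was 1571, 695 and 171 CPM in the IgG tumours, 1543, 1270 and 3136 with anti-CSF1, 986, 442 and 831 with Lupron and 1684, 1164 and 2101 with the combination. All 3 combination tumours were above all 3 Lupron tumours, whereas the IgG and anti-CSF1 tumours overlapped. The antibody effect on Col6a3 was 1.21 ± 0.47 (adjusted p = 0.203) and the Lupron effect -0.19 ± 0.46 (adjusted p = 0.875). Col6a1 was 1268, 562 and 173 CPM in the IgG tumours, 1379, 781 and 2200 with anti-CSF1, 970.1, 349 and 774 with Lupron and 1028, 624 and 1378 with the combination. The antibody effect on Col6a1 was 0.83 ± 0.46 (adjusted p = 0.345), and that on Col6a2 was 0.86 ± 0.49 (adjusted p = 0.354). Col6a2 stood at 469 ± 391 CPM in the IgG group, 1076 ± 532 under anti-CSF1, 535 ± 248 under Lupron and 772 ± 359 under the combination (mean ± SD, n = 3).

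Of the 3 alternative long chains of type VI, Col6a5 and Col6a6 went the other way in IgG tumour 3, and Col6a4 did not. Col6a6 was 0.951, 3.42 and 13 CPM in the IgG tumours, 0, 0.142 and 0 with anti-CSF1, 0.203, 0.287 and 0.104 with Lupron and 0.861, 0.107 and 0.103 with the combination. The IgG tumours held nearly all of it, and the anti-CSF1 group had 0, 3 and 0 counts. The antibody effect fitted for Col6a6 was -3.05 ± 0.97 (adjusted p = 0.145) and the interaction 7.85 ± 1.96 (adjusted p = 0.488). With so few counts these fitted values depend on the prior count and give no bound. Col6a5, another long chain, stood at 46.6 ± 41.3 CPM in the IgG group, 19.9 ± 9.64 under anti-CSF1, 16 ± 8.3 under Lupron and 21.1 ± 2.42 under the combination (mean ± SD, n = 3), with 94.0 CPM in IgG tumour 3 and 28.1 CPM in IgG tumour 2. Col6a4 ranged from 0.997 CPM in IgG tumour 3 to 9.25 CPM in IgG tumour 1. The smooth muscle, adipocyte and basal epithelial sums were also highest in IgG tumour 3, and their part in these levels was not tested.

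Since Col6a3 has the highest CPM of the type VI chains (Col6a1 and Col6a2 are higher per kilobase), its promoter is also given. Shown are the 250 bases before its RefSeq start (GRCm38.p6, chr1:90843972-90844221, minus strand). This window holds none of the 3 motifs searched (the TATA box TATAAA, the CAAT box CCAAT and the GC box GGGCGG, each on both strands) and 3 CG dinucleotides.
Col6a3: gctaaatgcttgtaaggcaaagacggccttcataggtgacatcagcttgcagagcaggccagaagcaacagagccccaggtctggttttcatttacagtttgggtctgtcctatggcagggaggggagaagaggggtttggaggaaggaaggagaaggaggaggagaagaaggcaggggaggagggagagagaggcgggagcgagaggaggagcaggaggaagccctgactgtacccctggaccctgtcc

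RefSeq gave such a window for 35 of the 44 chains. TATAAA was found in 5 of them (14.3%, against 13% of 27025 promoters), CCAAT in 12 (34.3%, against 34.5%) and GGGCGG, the GC box, in 21 (60%, against 32.9%). A match is a run of letters and not a shown binding site.

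Type IV collagen genes lie in head-to-head pairs, with Col4a1 and Col4a2 on chromosome 8, Col4a3 and Col4a4 on chromosome 1, and Col4a5 and Col4a6 on chromosome X. All 6 chains were tested, and their sum was 2141, 882 and 533 CPM in the IgG tumours, 1912, 1144 and 2469 with anti-CSF1, 1647, 552 and 1094 with Lupron and 1306, 856 and 1691 with the combination. Col4a1 and Col4a2 form the network found in nearly all basement membranes, including those of blood vessels. Col4a1 was 1200, 461 and 271 CPM in the IgG tumours, 1102, 650.3 and 1423 with anti-CSF1, 973, 290.3 and 618 with Lupron and 749, 472 and 979 with the combination, and Col4a2 was 866, 347 and 169.5 CPM in the IgG tumours, 734, 428 and 985 with anti-CSF1, 628, 188 and 415 with Lupron and 493, 313 and 666 with the combination. Their starts are 21 bases apart on opposite strands and their first exons share 22 bases (GRCm38, chr8:11312805-11312826), so reads there cannot be assigned without strand. The antibody effects were 0.47 ± 0.41 (adjusted p = 0.524) and 0.45 ± 0.42 (adjusted p = 0.56).

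The last pair was divided. Col4a5, whose product joins networks with Col4a3 and Col4a4 or with Col4a6, was even over the tumours, at 32.1 to 70.6 CPM, and its antibody effect was 0.44 ± 0.19 (adjusted p = 0.242). Col4a6, the epithelial partner found under prostate and skin epithelium and around smooth muscle, was 9.09, 32.8 and 29.7 CPM in the IgG tumours, 3.95, 0.379 and 1.07 with anti-CSF1, 1.83, 33.7 and 14.8 with Lupron and 8.57, 4 and 4.03 with the combination. Levels were 14.8 to 33.7 CPM in IgG tumours 2 and 3 and in Lupron tumours 2 and 3, and 9.09 CPM or less in the other 8 tumours. Its antibody effect, -2.65 ± 0.71 (adjusted p = 0.0934), had the smallest p of the 39 chains. Without IgG tumour 3 it was -2.56 (adjusted p = 0.127), and without both IgG tumour 3 and Lupron tumour 2 it was -2.05 (adjusted p = 0.26). The same 4 tumours had the highest sums of 9 luminal and prostate epithelium markers, at 19690 CPM in IgG tumour 2, 11950 in Lupron tumour 2, 7141 in Lupron tumour 3 and 3432 in IgG tumour 3, against 381.4 to 2787 CPM elsewhere. None of these 9 markers was called for the antibody, and 6 were lower at an unadjusted p under 0.05. Smooth muscle sums were highest in IgG tumour 3, at 12520 CPM, followed by 2880 in IgG tumour 2, 1724 in Lupron tumour 2, 818 in combination tumour 1 and 792 in Lupron tumour 3. The part of either marker list in the Col4a6 levels was not tested.

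The Col4a5 to Col4a6 ratio of counts ran from 0.98 in IgG tumour 2 to 167.5 in anti-CSF1 tumour 2, where the Col4a1 to Col4a2 ratio ran from 1.33 to 1.60. Because the starts of this pair are 1309 bases apart, the upstream stretch of each can be shown separately (RefSeq, GRCm38.p6). The Col4a5 stretch (chrX:141475169-141475384, plus strand, 216 bases up to the start of the first annotated exon) has CCAAT in capitals. The full 250-base window of Col4a5 also holds 1 GC box (GGGCGG), in the part after this stretch that is not shown. In the Col4a6 stretch (chrX:141474077-141474326, minus strand, 250 bases) the capitals mark the GC box, which reads GGGCGG on the opposite strand.
Col4a5: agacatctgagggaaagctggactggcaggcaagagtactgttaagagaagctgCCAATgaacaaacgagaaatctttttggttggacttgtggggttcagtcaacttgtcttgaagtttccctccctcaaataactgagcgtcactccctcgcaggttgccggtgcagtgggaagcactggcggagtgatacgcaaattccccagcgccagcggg
Col4a6: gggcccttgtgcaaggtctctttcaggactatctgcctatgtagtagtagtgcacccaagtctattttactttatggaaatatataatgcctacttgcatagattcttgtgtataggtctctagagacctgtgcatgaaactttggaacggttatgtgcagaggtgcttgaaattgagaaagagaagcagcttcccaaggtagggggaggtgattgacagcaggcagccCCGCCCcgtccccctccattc

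Col4a3 and Col4a4 form the network of kidney, lung and testis basement membranes and were low here. Col4a3 ranged from 0 CPM in anti-CSF1 tumour 3 to 8.51 CPM in IgG tumour 3, and Col4a4 from 0.237 CPM in Lupron tumour 1 to 13.4 CPM in IgG tumour 3. Their starts are 72 bases apart, and 5.65% of the Col4a3 exon bases also lie in a gene on the opposite strand, so counts there are uncertain without strand. Antibody effects were -1.72 ± 0.91 (adjusted p = 0.326) and -1.67 ± 0.76 (adjusted p = 0.263), with IgG tumour 3 highest for both.

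The short-chain network collagens had 3 tested chains. Col8a1, made by endothelium, smooth muscle and other cells of vessel walls, was 48.8, 32.2 and 6.34 CPM in the IgG tumours, 69.5, 49.6 and 65.5 with anti-CSF1, 41, 39.3 and 37.5 with Lupron and 25.8, 26.2 and 28.5 with the combination. The 3 anti-CSF1 tumours were the highest of all 12, and the combination tumours were lower than every tumour of the anti-CSF1 and Lupron groups. Anti-CSF1 against IgG was 1.08 ± 0.51 (adjusted p = 0.228), the combination against anti-CSF1 -1.20 ± 0.51 (adjusted p = 1) and the interaction -1.63 ± 0.71 (adjusted p = 0.72). Endothelial marker sums (8 of 8 measured) were 192.5 to 423.8 CPM with IgG, 371.7 to 577.8 with anti-CSF1, 197.1 to 334.5 with Lupron and 238.4 to 378.2 with the combination. Of the 8 markers, 5 lay above 0 and 3 below for anti-CSF1 against IgG. For the combination against anti-CSF1, 1 lay above 0 and 7 below, and against Lupron 7 lay above and 1 below. Smooth muscle marker sums were 660.4 to 12520 CPM with IgG, 437.4 to 649.6 with anti-CSF1, 394.7 to 1724 with Lupron and 430.3 to 818.4 with the combination. The part of either marker list in the Col8a1 levels was not tested. Col8a2 was 1.48, 1.96 and 8.08 CPM in the IgG tumours, 5.41, 0.237 and 5.01 with anti-CSF1, 0.71, 0.574 and 1.22 with Lupron and 0.548, 0.16 and 0.998 with the combination. All 6 tumours given Lupron were below the 3 IgG tumours, and anti-CSF1 tumour 2 was below 5 of the 6. Lupron averaged over the antibody gave -2.40 ± 0.74 (adjusted p = 0.525) for Col8a2, the smallest Lupron p among the chains. Col10a1, the chain of hypertrophic cartilage, was at 0 to 1.33 CPM, with all 3 combination tumours above all 3 Lupron and all 3 anti-CSF1 tumours.

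FACIT chains numbered 9 in the table and 5 tested. Col12a1, which bridges fibrils and is raised in tissues under tension, was 95.3, 73.7 and 100.5 CPM in the IgG tumours, 82.5, 71.6 and 107 with anti-CSF1, 74.3, 43.9 and 46.7 with Lupron and 72.2, 47.2 and 76.6 with the combination. Lupron averaged over the antibody gave -0.56 ± 0.19 (adjusted p = 0.525), while the antibody gave 0.10 ± 0.19 (adjusted p = 0.776). Its groups overlapped. Col16a1, found near fibrils and basement membranes, was 137, 76.2 and 26.5 CPM in the IgG tumours, 135, 88.7 and 162 with anti-CSF1, 118, 51.5 and 77.2 with Lupron and 87.6, 64.4 and 107 with the combination. Col14a1, a chain that regulates fibril growth in dense connective tissue, was 30.6, 23.5 and 75 CPM in the IgG tumours, 9.97, 6.63 and 13.6 with anti-CSF1, 31.6, 17.3 and 22.5 with Lupron and 32.3, 5.92 and 9.3 with the combination. The 3 anti-CSF1 tumours were below the 3 IgG tumours, and combination tumour 1, at 32.3 CPM, was far above the other combination tumours. The antibody effect on Col14a1 was -1.34 ± 0.44 (adjusted p = 0.154). Leaving out IgG tumour 3 gave -1.004 (adjusted p = 0.25), and leaving out combination tumour 1 gave -1.87 (adjusted p = 0.0439). Adipocyte marker sums were highest in IgG tumours 3 and 2 and combination tumour 1, at 2045, 303 and 217 CPM. Col14a1 was highest in IgG tumour 3 and combination tumour 1, at 75 and 32.3 CPM. Next came Lupron tumour 1 and IgG tumour 1, with adipocyte sums of 42.6 and 41.7 CPM, and then IgG tumour 2. The part of adipocytes in the Col14a1 levels was not tested. Col20a1 ranged from 0.0533 to 4.31 CPM, highest in IgG tumour 3, and Col9a3, with 6.07% of its exon bases shared with Tcfl5, from 0.142 to 1.03 CPM.

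Col7a1, the anchoring fibril chain that fastens epithelial basement membrane to the tissue below, was 37.2, 21.2 and 7.33 CPM in the IgG tumours, 26.9, 40.2 and 30.5 with anti-CSF1, 33.5, 28.4 and 25.4 with Lupron and 18.5, 24.5 and 23.3 with the combination. The combination tumours were below the Lupron tumours without overlap, but the comparison gave -0.40 ± 0.44 (adjusted p = 1). The antibody effect was 0.09 ± 0.31 (adjusted p = 0.891).

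Transmembrane collagens (4 chains) were led by Col23a1, at 4.91, 7.35 and 15.6 CPM in the IgG tumours, 7.21, 1.75 and 5.58 with anti-CSF1, 7.71, 3.33 and 5.04 with Lupron and 8.76, 2.51 and 4.89 with the combination. Its groups overlapped. Col17a1, the hemidesmosome collagen of basal epithelial cells, was 2.25, 5.55 and 25 CPM in the IgG tumours, 1.26, 1.71 and 0.995 with anti-CSF1, 0, 1.95 and 1.01 with Lupron and 1.49, 1.07 and 1.76 with the combination. IgG tumour 3 held 24.96 CPM, and the 3 IgG tumours were above all tumours of the other groups. Lupron against IgG was -3.49 ± 1.20 (adjusted p = 0.284), anti-CSF1 against IgG -3.05 ± 1.17 (adjusted p = 0.163) and the interaction 3.62 ± 1.60 (adjusted p = 0.729). Basal epithelial markers (4 of 4 measured) were also highest in IgG tumours 3 and 2, at 1308 and 61.3 CPM, and their part was not tested. Col25a1 was at 6.41 CPM in IgG tumour 3 and at 0 to 0.474 CPM in the other 11 tumours. Col13a1, found at cell junctions, ranged from 0.534 CPM in IgG tumour 3 to 4.55 CPM in anti-CSF1 tumour 2.

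The multiplexins of the basement membrane zone (2 chains, both tested) summed to 167.6 to 433.8 CPM. Col18a1, the precursor of endostatin, was 296, 171 and 141 CPM in the IgG tumours, 316, 192 and 307 with anti-CSF1, 235, 121 and 195 with Lupron and 269, 214 and 219 with the combination. Col15a1 was 90.7, 78.8 and 55.3 CPM in the IgG tumours, 97.7, 64.7 and 127 with anti-CSF1, 96, 46.6 and 98.6 with Lupron and 69.3, 87.3 and 78.2 with the combination. Lupron tumour 2 was the lowest for both chains, and the groups overlapped. Antibody effects were 0.39 ± 0.23 (adjusted p = 0.376) and 0.16 ± 0.23 (adjusted p = 0.7). Of the other chains, Col28a1, linked to peripheral nerve, was 1.52, 1.75 and 1.96 CPM in the IgG tumours, 3.03, 2.08 and 4.16 with anti-CSF1, 3.21, 2.29 and 1.46 with Lupron and 2.66, 1.39 and 3.37 with the combination. The 3 anti-CSF1 tumours were above the 3 IgG tumours, and the comparison gave 0.82 ± 0.48 (adjusted p = 0.316). Col26a1, found in testis and ovary, was 0.571, 2.09 and 3.67 CPM in the IgG tumours, 1.91, 1.47 and 0 with anti-CSF1, 0.338, 0.918 and 0.208 with Lupron and 0.117, 0 and 0.344 with the combination. Lupron averaged over the antibody gave -2.45 ± 1.01 (adjusted p = 0.525).

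Without overlap between 3 and 3 tumours, anti-CSF1 exceeded IgG for 3 chains (Col5a3, Col8a1 and Col28a1; 11.1% of all genes) and was below it for 5 (Col4a6, Col6a6, Col14a1, Col17a1 and Col20a1; 12.8%). Lupron was above IgG for 0 (11.1%) and below it for 3 (Col6a6, Col8a2 and Col17a1; 8.53%). For the combination against IgG the counts were 1 above (Col27a1; 15.1%) and 5 below (Col4a6, Col6a6, Col8a2, Col17a1 and Col26a1; 12.7%). The combination exceeded Lupron for 4 (Col5a3, Col6a3, Col10a1 and Col27a1; 5.86%) and was below it for 3 (Col7a1, Col8a1 and Col11a2; 6.93%). Against anti-CSF1 it was above for 2 (Col10a1 and Col4a6; 4.75%) and below for 4 (Col5a3, Col7a1, Col8a1 and Col11a2; 5.22%). With 3 tumours on each side, the smallest p of a two-sided exact permutation test would be 0.1.

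**Figure D3:**
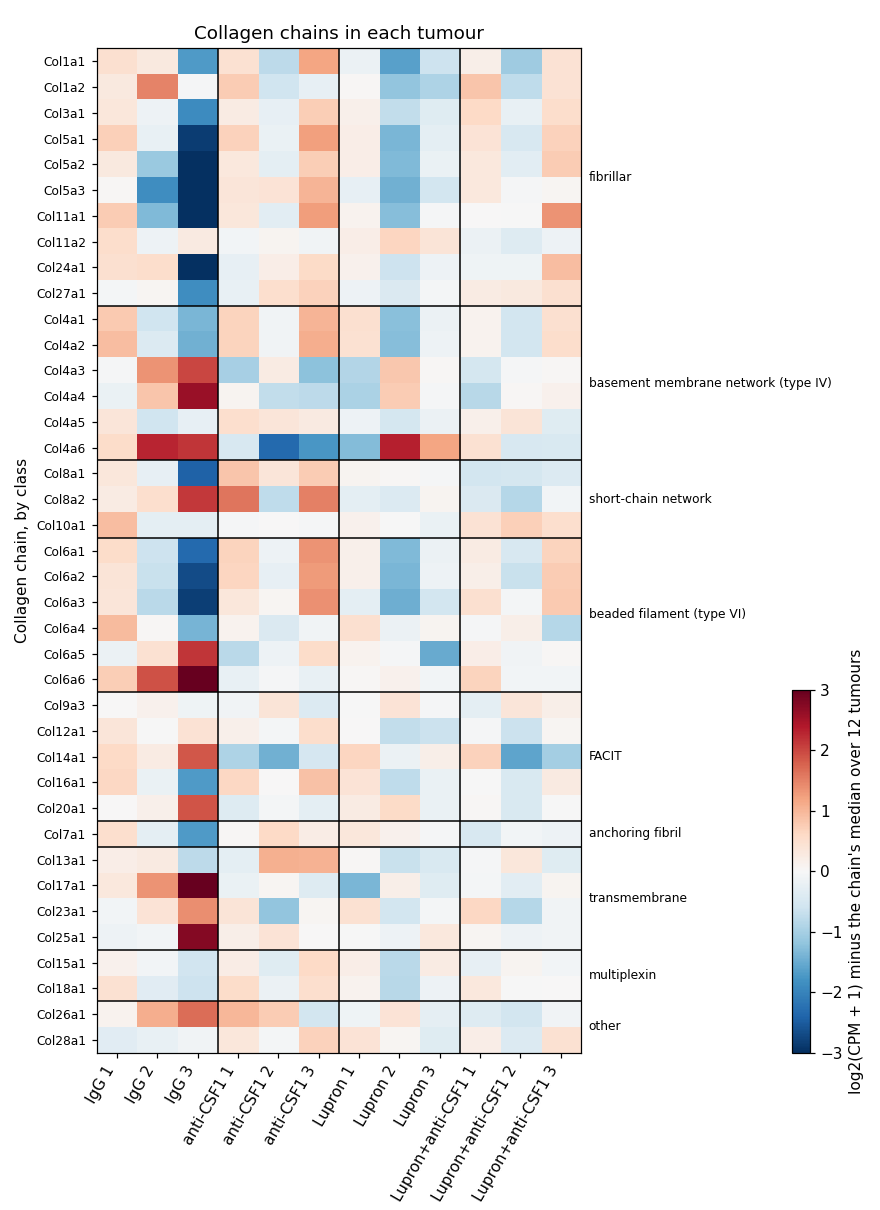
Level of the 39 tested collagen chains in each of 12 tumours, as log2(CPM + 1) minus the chain's median over the tumours, with chains ordered by class and colours limited to 3 either way. The IgG tumour 3 column is split, lowest or tied lowest for 19 chains and highest for 11.

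Much of the spread between tumours fell on single libraries. IgG tumour 3 was lowest or tied lowest for 19 of 39 chains (48.7%), where it was so for 30.3% of all genes tested, and highest for 11 (28.2%), against 30.7% of all genes. The 11 were Col4a3, Col4a4, Col6a5, Col6a6, Col8a2, Col14a1, Col17a1, Col20a1, Col23a1, Col25a1 and Col26a1, all under 100 CPM there. Anti-CSF1 tumour 3 was highest for 14 chains (35.9%), against 10.5% of all genes. These 14 included Col1a1, Col3a1, Col4a1, Col4a2, Col6a1, Col6a2 and Col6a3.

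Chains of one trimer differed in how closely they kept step. Ratios with a low chain spread widely, such as Col4a5 to Col4a6 (above) and Col6a5 to Col6a1, the last of which ran from 0.00814 in anti-CSF1 tumour 1 to 0.543 in IgG tumour 3. The ratio of Col4a1 to Col4a2 counts lay between 1.33 and 1.60 over the 12 tumours, the highest 1.20 times the lowest, although Col4a1 alone ran from 271 to 1423 CPM and Col4a2 from 169.5 to 985 CPM. Col6a1 to Col6a2 ran from 1.21 to 1.67, and Col6a3 to Col6a1 from 0.987 to 1.87. In Col6a3 to Col6a1 the 3 combination tumours, at 1.64, 1.87 and 1.53, were above the 3 Lupron tumours, at 1.02, 1.27 and 1.07. Col5a1 to Col5a2 ran from 0.449 to 0.939, with the 6 tumours given Lupron at 0.449 to 0.539 and the other 6 at 0.543 to 0.939. The highest ratios, 0.939 and 0.932, were in IgG tumours 2 and 3. No test was made on the ratios. These splits between groups are described because of their values, and how many other pairs of genes split in this way was not counted.

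Among the pairs of abundant chains, type I collagen spread most, and it is described because of its values, with no test. The ratio of Col1a1 to Col1a2 counts was 4.77, 1.82 and 1.32 in the IgG tumours, 3.37, 3.67 and 11.4 with anti-CSF1, 3.7, 3.08 and 5.28 with Lupron and 2.67, 3.45 and 4.24 with the combination. Per length of transcript it ran from 1.19 in IgG tumour 3 to 10.3 in anti-CSF1 tumour 3, with a median of 3.21. Col1a1 lies on chromosome 11 and Col1a2 on chromosome 6, and in the annotation used here no other gene overlaps the exons of either. The cause of the spread in this ratio was not tested. Col3a1 and Col5a2, neighbours on chromosome 1 with 24614 bases between them, had a ratio of 2.52 to 4.46 in 10 tumours and of 5.81 and 10.8 in IgG tumours 2 and 3.

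**Figure D4:**
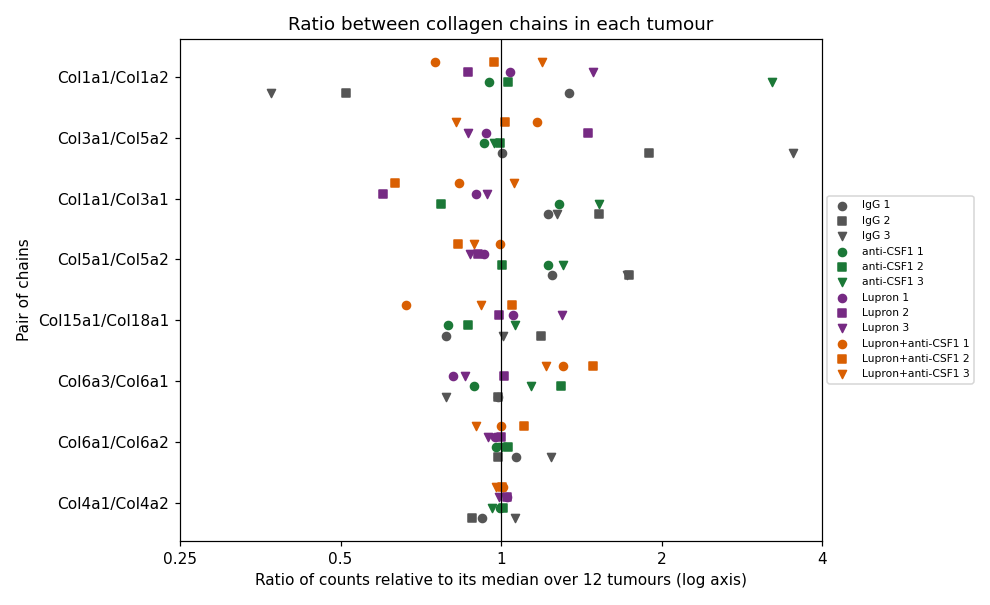
Ratio of counts of 8 pairs of collagen chains in each tumour, divided by the pair's median over 12 tumours, on a log axis; colours are groups and shapes replicate numbers. Col4a1/Col4a2 stays closest to its median (highest over lowest 1.20) and Col1a1/Col1a2 spreads widest of the 8 drawn (8.69), from IgG tumour 3 to anti-CSF1 tumour 3.

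Genes that make, process and bind collagen were read in 5 lists of 57 genes, of which 54 were tested. A single gene was called in the antibody comparison, where 1.87% of all genes tested were called. None was called in the Lupron comparison, where 0% of all genes were called. The gene called was Lair1, an inhibitory receptor of leukocytes that binds collagen. Its level was 36.9, 54.1 and 6.73 CPM in the IgG tumours, 10.1, 6.45 and 5.72 with anti-CSF1, 66, 84.8 and 56.8 with Lupron and 11.3, 8 and 6.2 with the combination. All tumours given the antibody were at or below 11.3 CPM, as was IgG tumour 3, and Lair1 fell by 2.58 ± 0.42 on the log2 scale (adjusted p = 0.0131). The adjusted p was 0.0586 without anti-CSF1 tumour 3, 0.0598 without anti-CSF1 tumour 2, 0.055 without combination tumour 2 and 0.0561 without combination tumour 3. All 9 macrophage markers were below 0 for the antibody and 8 of them were called lower, Csf1r among them at -2.38 ± 0.31 (adjusted p = 0.00798). Macrophage sums were 387 to 1254 CPM with IgG, 121.0 to 271 CPM with anti-CSF1, 903.5 to 1194 CPM with Lupron and 142 to 207 CPM with the combination, and their part in Lair1 was not tested.

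Of the 19 chain hydroxylases, glycosyltransferases and chaperones, 0 were called, and 17 were above 0 for the antibody with a median log2 fold change of 0.59. Plod2, the lysyl hydroxylase of the chain ends that form cross-links, was 196, 62.5 and 36.6 CPM in the IgG tumours, 278, 304 and 371 with anti-CSF1, 148, 146 and 166 with Lupron and 209.5, 298 and 174 with the combination. Every anti-CSF1 tumour was above every IgG tumour, and every combination tumour above every Lupron tumour, with an antibody effect of 1.13 ± 0.35 (adjusted p = 0.134). Tmem38b, an endoplasmic reticulum ion channel needed for collagen folding, was at 23.4 CPM in IgG tumour 3 and at 1.76 to 5.80 CPM elsewhere, with an effect of -1.34 ± 0.43 (adjusted p = 0.146).

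Propeptide processing (7 tested, 0 called) had 6 genes above 0 for the antibody. Bmp1, the procollagen C-proteinase, had an antibody effect of 0.74 ± 0.37 (adjusted p = 0.298), and its relative Tll1 a Lupron effect of -1.22 ± 0.48 (adjusted p = 0.525). For the 5 cross-linking lysyl oxidases, all tested and 0 called, Loxl2 had an antibody effect of 0.91 ± 0.53 (adjusted p = 0.366) and Loxl1 a Lupron effect of -0.45 ± 0.28 (adjusted p = 0.559). Loxl2 was 18.4 CPM in IgG tumour 3 and higher elsewhere, at 124 to 650.1 CPM. Among 14 tested fibril-binding proteoglycans and matrix proteins 0 were called. Tnxb, tenascin-X, was at 65.9 CPM in IgG tumour 3 and at 0.604 to 18.2 CPM elsewhere, with an antibody effect of -1.99 ± 0.61 (adjusted p = 0.133). Ogn, the small proteoglycan osteoglycin, had a Lupron effect of -1.49 ± 0.47 (adjusted p = 0.525), and 12 of the 14 were below 0 for Lupron with a median of -0.65.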

How the data were processed

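The table the authors deposited holds raw, unnormalized read counts of 23479 genes in 12 libraries. Per the labels' protocols, RNA from frozen tumour tissue was isolated on RNeasy Plus columns and the library kit was NuGen Ovation Mouse RNA-Seq. The submitters' processing notes name bcl2fastq 2.20.0.422, cutadapt 1.8.1 and HTSeq 0.6.1, and genome build mm10. Which aligner, annotation and strand setting were used was not given in the sources used here. RNA integrity numbers in the labels were 8.2 to 9.8. Every column matched a sample label.

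The tests used edgeR 4.0.16 in R 4.3.3: filterByExpr for the 4 groups, TMM scaling, 1 mean per group over 12 libraries, robust quasi-likelihood fit, two-sided F tests, and Benjamini-Hochberg adjustment over 15082 genes, with genes called at an adjusted p under 0.05. Effects are log2 fold changes ± standard error. The standard error is an approximation, the absolute log2 fold change divided by the square root of the F statistic. The biological coefficient of variation was 0.471. Among 66 pairs of libraries, over genes with 20 or more counts, the lowest chi-square was 38 times its degrees of freedom, so none was taken as a duplicate. The scripts were tested on simulated data. Transcript lengths (longest protein-coding transcript) and exon positions came from GENCODE M21, and promoter sequences from RefSeq (GRCm38.p6). The annotation the authors counted on may differ.

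The members and gene lists were chosen with earlier results of these data known. Values in every tumour were given for the 2 chains of each class with the highest mean CPM (at least 1 CPM on average) and the 3 chains with the smallest p for the antibody, Lupron and the interaction. For pathway lists, called genes, or the 2 with the smallest p, were named. Older symbols matched 6 list genes, and Col21a1 was not analysed here. Alternatives were RLE or upper-quartile scaling, DESeq2 1.42.0, limma 3.58.1 voom with quality weights, other filters, fits on the compared groups only, the replicate number as a block, and leaving out each library.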

Additional observations from a re-analysis of the deposited data

How the results depend on the processing

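The count of called chains was 0 in all 8 comparisons under RLE and upper-quartile scaling, without a filter on low counts, with a filter of 1 CPM in 3 libraries and with the replicate block, and in the 5 comparisons of 2 groups when fitted on those groups only. Over these settings 1 to 2.19% of all genes were called for the antibody, 0 to 1.43% for the combination against Lupron (the highest in the fit on those groups only) and at most 0.0265% for the others. Replicate numbers showed no clear pairing of the tumours. Of 18 same-numbered pairs, 7 had a correlation of deviations over 0.1 (range -0.32 to 0.335), and 4 of 12 libraries matched their own number best. With 3 tumours per group, these values cannot settle whether same-numbered tumours shared a batch. With DESeq2 the count was 3 for the antibody, 1 for the interaction (Col6a6), 7 for anti-CSF1 against IgG, 2 for Lupron against IgG and 3 for the combination against IgG. With limma voom and quality weights the counts were 9, 0, 7, 4 and 4 in the same order. Both gave 0 for Lupron averaged over the antibody and for the combination against either single treatment. Leaving out 1 library at a time gave 0 to 6 chains for the antibody, 0 to 8 for anti-CSF1 against IgG, 0 to 1 for Lupron against IgG and 0 to 4 for the combination against IgG. The highest count of each came without IgG tumour 1, and the cause was not tested. Without both IgG tumour 3 and Lupron tumour 2, a setting chosen after seeing the data, the count was 0 in all comparisons. The antibody effect on Lair1 and the effects of the 3 chains with the smallest p for the antibody, Lupron and the interaction each kept their sign in all 200 alternative values. These genes were picked by their p in the same libraries, so their kept signs are no independent check. Over all 39 chains the sign changed in at least 1 setting for 8 in the antibody comparison, among them Col1a2 and Col7a1. It changed for 25 in the Lupron comparison, among them Col3a1, Col6a3 and Col14a1, and for 17 in the interaction. Without IgG tumour 1, 12 chains changed sign for Lupron. The 3 tumours in a group limit what can be called, and chains under 1 CPM rest on few counts.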
